A study of Mus musculus with 5 samples.

Results

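The genes of the first and second enzymes of ubiquitin transfer and of the deubiquitinases were followed in newborn mouse lenses that lack Celf1, an RNA-binding protein. Members were taken by gene symbol, as *Uba1* to *Uba7*, every symbol that starts with *Ube2*, the numbered *Usp* genes and the numbered *Uchl* genes, without *Usp9y* and *Usp18*. This gave 92 of the 19057 genes that an array probe names, with 3 E1 genes, 34 *Ube2* genes, 4 *Uchl* genes and 51 *Usp* genes. Each gene was read by its brightest probe over the 5 arrays. The symbol rule also took in 4 genes that are no plain E2 or deubiquitinase: *Usp6nl*, which encodes a GTPase-activating protein for Rab proteins, *Usp46os2*, an antisense transcript, *Ube2d-ps*, a pseudogene, and *Ube2cbp*, which encodes a binding partner of an E2.

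RNA of the newborn lens was read with Illumina bead arrays (MouseWG-6 v2.0) on the day of birth, with 3 arrays of *Celf1* cKO/lacZKI lenses, with the letters A, B and C, and 2 arrays of control lenses, with the letters A and B, each from 2 pooled lenses. The mutant carries the *Pax6GFPCre* driver, which removes a floxed *Celf1* exon from one allele in the lens placode and its descendants, while its other allele is disrupted by *lacZ* in every cell of the animal. The labels describe the controls as wild type on a mixed C57BL/6J and FVB background, whereas the methods for the whole study use floxed animals with no driver or driver animals with intact *Celf1*, so it is not settled which of these the 2 control arrays hold. These are bulk lenses, in which fewer cells of a type and less RNA per cell cannot be told apart.

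*Celf1* read 167, 173 and 154 on the mutant arrays and 516 and 461 on the control arrays, a log2 change of -1.38 (adjusted p = 7.88e-04 from limma), though the place of its probe and that of the deleted exon were not compared. Mutant arrays A and B differed from the other arrays in sex-linked genes, since *Xist* read -0.3, -0.9 and 263.5 in the mutant and 432 and 441 in the control, and the Y-linked *Eif2s3y* 207, 177 and 4.4 in the mutant and 2.5 and 1.1 in the control. Of 11 measured lens markers, 9 were bright on all arrays, while *Pax6* read 2.7 to 4.8 in the mutant and 7.8 and 10.6 in the control, and *Foxe3* 27.8 to 39.6 in the mutant and 22.3 and 41.3 in the control. Their summed intensity was 1.41e+05 to 1.72e+05 in the mutant and 1.76e+05 to 1.81e+05 in the control, and *Lim2* and *Bfsp2* fell.

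Ubiquitin is a small protein that marks other proteins for destruction by the proteasome or changes how they work. An E1 enzyme activates it with ATP, an E2 enzyme carries it, and an E3 ligase places it on the substrate, alone or in chains whose linkage sets the outcome. Deubiquitinases cut it off again, trim chains and return free ubiquitin to the pool. Lens fiber cells dismantle their nuclei and organelles as they mature and keep their proteins for life, and the ubiquitin pathway is active in lens epithelium and in differentiating fibers.

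Of the 92 members, 5 rose and 3 fell in *Celf1* cKO/lacZKI lenses at an adjusted p under 0.05 (limma on log2 intensity, Benjamini-Hochberg over 19057 genes). *Uchl1*, *Usp5*, *Usp11*, *Ube2z* and *Usp22* rose, and *Uba6*, *Ube2o* and *Ube2n* fell. This is 8.70% of the members, where 5.82% of all genes passed. The 5 that rose are 5.43% of the members, against 3.15% of all genes, and the 3 that fell are 3.26%, against 2.68%. At an unadjusted p under 0.05 there were 27 members, 15 higher and 12 lower, which is 29.3% of them, against 17.8% of all genes. The median log2 change was -0.0043 for the members and -0.0027 for all genes, while the median size of the change was 0.14 for the members and 0.10 for all genes. The 8 genes were all among the 50 members with a mean intensity of at least 36.5, of which 16% passed, and at that brightness 15.2% of all genes passed, so the share among bright members lay near the background. Of all 19057 genes, 6681 were this bright, a smaller part than among the members. The unadjusted shares and the median sizes of change above were not matched for brightness. A value of 36.5 was added to each intensity before log2 was taken, and log2 changes are on this scale, which understates the change of dim genes. Each of the 8 genes had no overlap between its mutant and control arrays, and this held for all 1110 genes that passed.

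**Figure D1:**
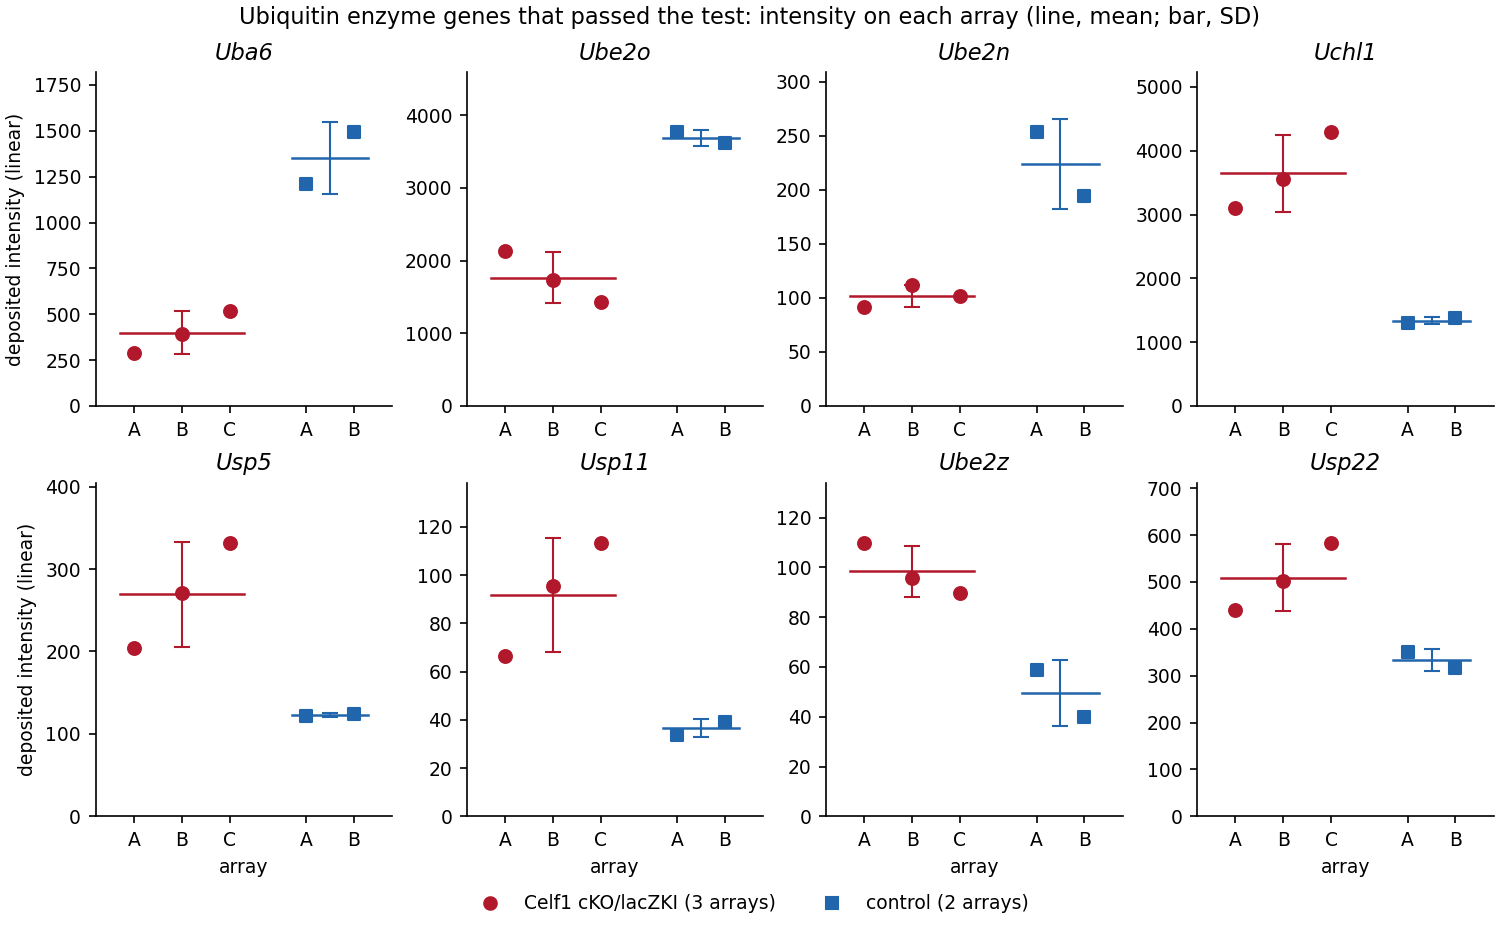
Deposited intensity (linear axis from 0) of the 8 genes that passed, on mutant arrays A, B and C (red circles, left) and control arrays A and B (blue squares, right), with the group mean as a line and the SD as a bar. In each panel every mutant array lies on one side of both control arrays, below them for *Uba6*, *Ube2o* and *Ube2n* and above them for the other 5.

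Promoters are shown for the genes that passed where the RefSeq table (GRCm38.p6) holds an entry, which is 4 of the 8, *Ube2n*, *Ube2z*, *Uchl1* and *Usp11*. Each stretch runs from 250 bases before to 50 after the annotated start, on the strand of the gene, with matches to GGGCGG (the GC box) and CCAAT (the CCAAT box), on either strand, in capitals. *Uba6*, *Ube2o*, *Usp5* and *Usp22* are named only.
*Ube2n*, chr10:95514912-95515211, plus strand: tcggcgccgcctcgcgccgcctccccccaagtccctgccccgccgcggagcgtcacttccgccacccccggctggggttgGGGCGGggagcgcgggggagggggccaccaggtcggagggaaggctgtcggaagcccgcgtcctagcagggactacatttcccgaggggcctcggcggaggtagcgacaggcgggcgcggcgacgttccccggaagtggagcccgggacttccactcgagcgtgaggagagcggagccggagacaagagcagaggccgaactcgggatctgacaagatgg
*Ube2z*, chr11:96065315-96065614, minus strand: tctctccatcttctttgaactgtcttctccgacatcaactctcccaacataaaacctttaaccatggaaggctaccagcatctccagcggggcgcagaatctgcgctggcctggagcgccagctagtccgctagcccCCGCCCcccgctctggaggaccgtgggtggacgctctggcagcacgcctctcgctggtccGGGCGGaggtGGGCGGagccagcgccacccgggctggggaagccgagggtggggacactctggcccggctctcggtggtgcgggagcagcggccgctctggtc
*Uchl1*, chr5:66675871-66676170, plus strand: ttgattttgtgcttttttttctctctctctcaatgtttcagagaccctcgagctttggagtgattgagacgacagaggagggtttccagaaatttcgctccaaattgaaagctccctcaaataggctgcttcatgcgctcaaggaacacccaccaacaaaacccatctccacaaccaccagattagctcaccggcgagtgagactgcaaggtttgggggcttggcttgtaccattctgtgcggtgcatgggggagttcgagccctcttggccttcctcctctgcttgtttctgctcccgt
*Usp11*, chrX:20703659-20703958, plus strand: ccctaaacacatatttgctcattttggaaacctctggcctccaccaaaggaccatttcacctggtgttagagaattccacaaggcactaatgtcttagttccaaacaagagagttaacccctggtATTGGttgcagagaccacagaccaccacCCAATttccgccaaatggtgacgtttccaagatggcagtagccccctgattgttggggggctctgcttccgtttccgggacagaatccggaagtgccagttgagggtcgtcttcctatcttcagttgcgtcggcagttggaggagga
The *Ube2z* stretch held 3 GC boxes and the *Ube2n* stretch 1, *Usp11* held 2 CCAAT boxes, and neither motif was found in the *Uchl1* stretch. TATAAA, the third motif searched, was in none of the 4. None of the matches shared a base. Across the members, 73 genes had 83 promoters in the table, of which 67.5% held a GC box, 26.5% a CCAAT box and 10.8% a TATAAA, against 35.7%, 37.4% and 13.6% of all 32851 promoters of that length. These shares were not matched for brightness. A match is a description of letters and was not tested as a binding site, and transcription was not measured.

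Among the E1 genes, *Uba6* fell 3.24-fold, and the other measured members did not pass. *Uba6* encodes the E1 that works beside the main ubiquitin E1 and, in human cells, also activates the ubiquitin-like modifier FAT10. It read 289, 393 and 519 on the mutant arrays and 1211 and 1491 on the control arrays. The groups were far apart, with mutant array C the nearest to the controls and mutant array A the farthest. The means were 400.3 ± 115 (SD, n = 3) in mutant lenses, against 1351 ± 198 (SD, n = 2) in control lenses, a log2 change of -1.69 (standard error 0.21, 95% interval -2.19 to -1.20, adjusted p = 0.00579). Without control array B, where 1 control is assumed to vary like the mutant arrays, the change was -1.55 (adjusted p = 0.0746). A dimmer *Uba6* probe read 5.2, 7.4 and 10.5 in the mutant and 5.1 and 8.0 in the control, close to background on all arrays.

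*Uba3*, the catalytic subunit of the E1 for Nedd8, read 180, 138 and 88.6 in the mutant and 113 and 91.0 in the control. The arrays overlapped, and mutant array C was below both controls while A and B were above them. The log2 change was 0.28 (95% interval -0.21 to 0.77, adjusted p = 0.582). *Uba7*, the E1 for the interferon-induced modifier Isg15, was dim at 17.7 to 37.4 in the mutant and 27.2 and 39.1 in the control (log2 change -0.18, 95% interval -0.52 to 0.17, adjusted p = 0.620).

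Of the 3 E2 genes whose products accept their modifier from a particular E1, *Ube2z* rose and the other two did not pass. *Ube2z* encodes an E2 that human UBA6 loads and the main E1 does not. It read 110, 95.7 and 89.9 on the mutant arrays and 58.8 and 40.1 on the control arrays. All 3 mutant arrays were above both controls, and the controls were less alike than the mutants. The means were 98.5 ± 10.3 (SD, n = 3) in mutant lenses, against 49.5 ± 13.2 (SD, n = 2) in control lenses, a log2 change of 0.66 (standard error 0.12, adjusted p = 0.0206). Its other probes were near background and had log2 changes of -0.13 and 0.14, and with all probes of a gene averaged *Ube2z* did not pass (0.22, adjusted p = 0.193). It also did not pass without mutant array A (adjusted p = 0.0559), mutant array B (0.0616) or control array B (0.123). *Ube2f*, an E2 for Nedd8 that works with *Uba3*, read 197, 181 and 135 in the mutant and 252 and 262 in the control, without overlap (log2 change -0.51, 95% interval -0.83 to -0.20, adjusted p = 0.0782). *Ube2l6*, the E2 for Isg15, was near background at 11.5 to 13.4 in the mutant and 10.5 and 12.8 in the control.

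*Ube2n* fell, and the genes of its partner proteins did not pass. It encodes Ubc13, the E2 that builds Lys63-linked chains in a pair with *Ube2v1* or *Ube2v2*, which lack the catalytic cysteine. *Ube2n* read 91.9, 112 and 102 on the mutant arrays and 253 and 194 on the control arrays. The mutant arrays lay close together and well below both controls. The means were 102 ± 10.3 (SD, n = 3) in mutant lenses, against 223.8 ± 41.7 (SD, n = 2) in control lenses, a log2 change of -0.90 (standard error 0.12, adjusted p = 0.00714). It passed on leaving out each array in turn, as only *Uchl1* also did among the 8. A dimmer *Ube2n* probe, at 10.2 to 15.6 in the mutant and 18.3 and 22.0 in the control, had a log2 change of -0.21 (adjusted p = 0.287 over probes). *Ube2v1* read 296, 380 and 346 in the mutant and 337 and 558 in the control, so that its groups overlapped and control array B stood above the rest (log2 change -0.33, 95% interval -0.78 to 0.12, adjusted p = 0.459). *Ube2v2* was at 3.6 to 6.9 in the mutant and 6.7 and 9.3 in the control, near background. *Ube2a* and *Ube2b*, close homologs that ubiquitinate PCNA and histone H2B with Rad18 or Rnf20, had log2 changes of 0.33 (adjusted p = 0.103) and 0.10 (adjusted p = 0.670).

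The large E2 *Ube2o* fell 2.09-fold, and the brightest probes of 3 genes of the Q-type E2s lay in the same direction without passing. *Ube2o* encodes an enzyme that acts as E2 and E3 in 1 protein and that in mouse reticulocytes removes ribosomes as red cells mature. It read 2138, 1727 and 1431 in the mutant and 3762 and 3610 in the control. The controls were close together and the mutant arrays spread below them. The means were 1766 ± 355 (SD, n = 3) in mutant lenses, against 3686 ± 108 (SD, n = 2) in control lenses, a log2 change of -1.06 (standard error 0.15, 95% interval -1.43 to -0.70, adjusted p = 0.00945). It did not pass without control array A (adjusted p = 0.0683) or control array B (0.0890). None of the 5 measured red blood cell markers passed. They summed to 2676 to 8350 in the mutant and 2583 to 3578 in the control, nearly all of it from the globin genes *Hba-a1* and *Hbb-bt*. *Slc4a1*, the anion exchanger of the red cell membrane, lay in the direction of *Ube2o* without overlap, at 24.8, 30.4 and 19.6 in the mutant and 39.2 and 62.1 in the control (log2 change -0.50, unadjusted p = 0.00643, adjusted p = 0.0820), and the other 4 markers had log2 changes from 0.13 to 0.71. Mutant array A held the highest sum and also the highest *Ube2o* value of the mutant arrays, and the part of red cells in the result was not tested.

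*Ube2q2* was the member just outside the threshold. It read 132, 137 and 84.2 in the mutant and 220 and 198 in the control, without overlap, a log2 change of -0.69 (95% interval -1.06 to -0.31, adjusted p = 0.0514). A dimmer probe of *Ube2q2* read 38.8, 36.4 and 24.5 in the mutant and 63.8 and 66.1 in the control and passed among probes (log2 change -0.55, adjusted p = 0.0309). On both probes mutant array C was the lowest. *Ube2q1* had a log2 change of -0.47 (adjusted p = 0.248) and *Ube2ql1* of -0.38 (adjusted p = 0.158), and neither had overlapping groups. The other *Ube2q1* probes lay the other way, at 51.6, 47.8 and 36.7 in the mutant and 42.0 and 21.7 in the control (log2 change 0.27, adjusted p = 0.434 over probes), and near background at 10.9 to 15.7 in the mutant and 7.2 and 8.3 in the control (0.16, adjusted p = 0.424). Just inside the threshold was *Usp22*, described among the *Usp* genes.

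None of the 11 general-purpose E2 genes passed, and their log2 changes lay between -0.21 for *Ube2h* and 0.43 for *Ube2k*. *Ube2k*, which builds Lys48-linked chains, read 1309, 1286 and 1017 in the mutant and 816 and 948 in the control. Mutant array C was the closest to the controls, and the groups did not overlap (95% interval 0.13 to 0.73, adjusted p = 0.120). *Ube2l3*, an E2 for HECT and RBR ligases, read 1266, 1376 and 1212 in the mutant and 1339 and 1409 in the control, with overlap (log2 change -0.10, 95% interval -0.30 to 0.11, adjusted p = 0.662). *Ube2d2a*, of the family that serves many RING ligases, had a log2 change of -0.01 (95% interval -0.20 to 0.18), and *Ube2d3* of -0.16 (95% interval -0.37 to 0.06). *Ube2e1*, *Ube2e2* and *Ube2e3*, which share a core with the *Ube2d* family and carry an extended N terminus, lay at 0.27, 0.22 and 0.29 (adjusted p = 0.0976, 0.250 and 0.294).

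The E2 genes that serve the anaphase-promoting complex in mitosis were dim. *Ube2c*, which starts chains, read 3.0, 7.1 and 0.7 in the mutant and -1.5 and -8.0 in the control, at background. *Ube2s*, which extends them, read 30.8, 32.5 and 29.1 in the mutant and 15.6 and 22.8 in the control, with no overlap (log2 change 0.28, adjusted p = 0.142). *Ube2t*, of DNA crosslink repair, was at 1.0 to 8.4 in the mutant and 1.2 and 2.1 in the control. Of the 4 E2 genes of degradation from the endoplasmic reticulum, none passed. *Ube2j2* had a log2 change of 0.30 (adjusted p = 0.180) and *Ube2g1* of 0.17 (adjusted p = 0.602). *Ube2j1* read 32.6, 35.5 and 11.1 in the mutant and 28.1 and 38.8 in the control, with mutant array C apart from the other 4 arrays.

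**Figure D2:**
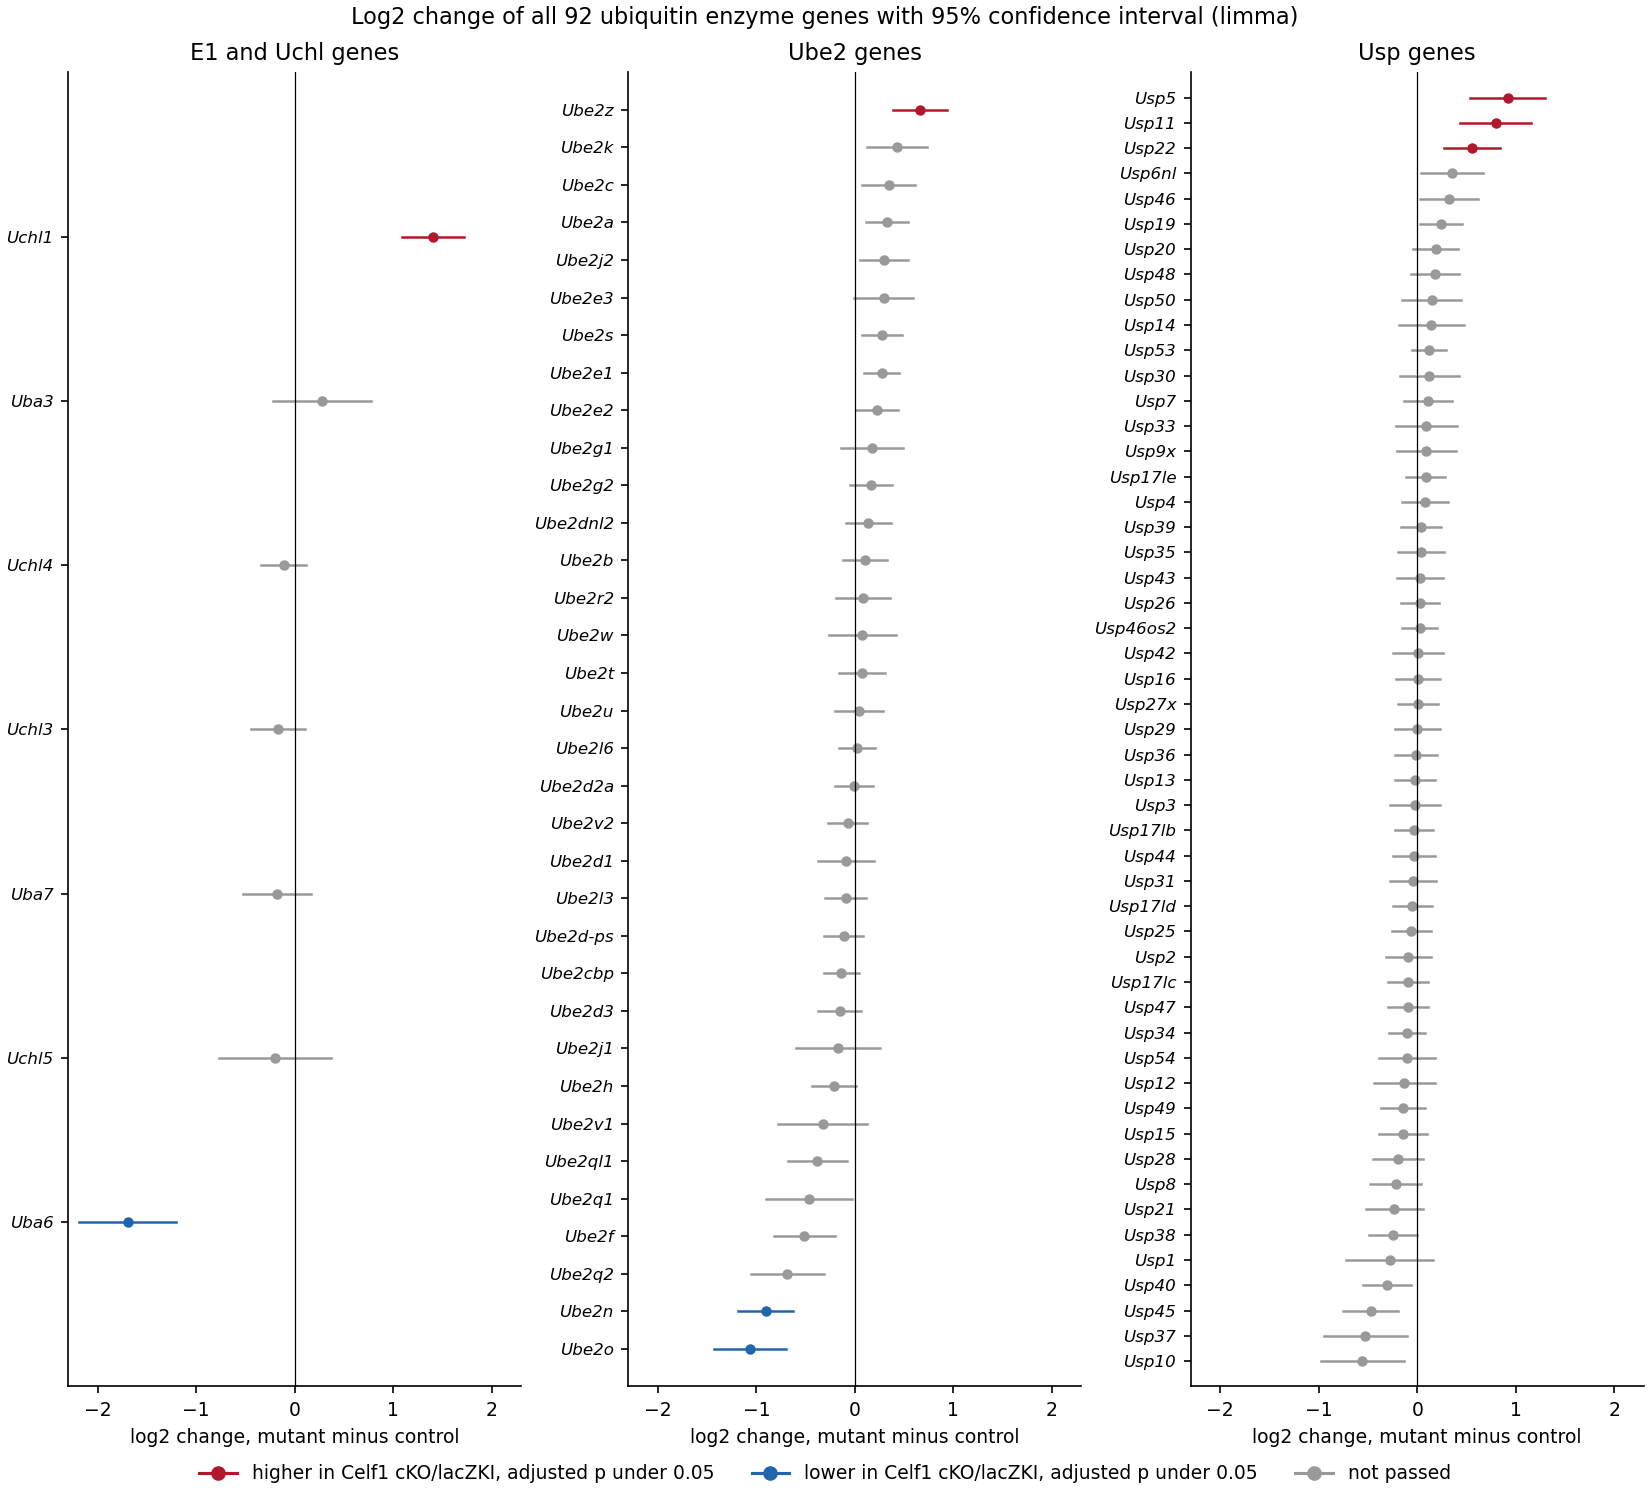
Log2 change (mutant minus control) of all 92 members with its 95% confidence interval, ordered within E1 and *Uchl* genes, *Ube2* genes and *Usp* genes, with red for genes higher and blue for genes lower in the mutant at an adjusted p under 0.05 and grey for the rest. The largest changes are -1.69 for *Uba6* and 1.41 for *Uchl1*, and 80 members lie within 0.5 of 0.

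Among the 4 measured ubiquitin C-terminal hydrolase genes, *Uchl1* rose 2.65-fold and the others did not pass. *Uchl1* encodes a small deubiquitinase that is abundant in neurons and keeps free ubiquitin available. It read 3098, 3550 and 4286 on the mutant arrays and 1304 and 1373 on the control arrays. Every mutant array was far above both controls, with mutant array C the highest. The means were 3644 ± 600 (SD, n = 3) in mutant lenses, against 1339 ± 48.6 (SD, n = 2) in control lenses, a log2 change of 1.41 (standard error 0.13, 95% interval 1.09 to 1.72, adjusted p = 0.00284). It has 1 probe. None of 17 measured neuron and retina markers passed. Their summed intensity was 110 to 126 in the mutant and 113 to 158 in the control, and 3 had an unadjusted p under 0.05. *Sncg*, the brightest of them, read 38.6, 33.4 and 32.2 in the mutant and 17.8 and 27.5 in the control, without overlap (log2 change 0.27, adjusted p = 0.198), while *Elavl4* had a log2 change of -0.33 (adjusted p = 0.0932) and *Crx* of -0.26 (adjusted p = 0.280). The 16 markers other than *Sncg* read under 36.5 on every array, and the part of neural cells in the result was not tested.

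*Uchl3*, a hydrolase of ubiquitin and Nedd8 adducts, read 171, 168 and 130 in the mutant and 190 and 169 in the control (log2 change -0.17, 95% interval -0.44 to 0.11, adjusted p = 0.542). *Uchl5*, which binds the proteasome through Adrm1 and the INO80 complex, read 315, 330 and 163 in the mutant and 307 and 298 in the control. Mutant arrays A and B lay above both controls and array C far below them, and the test gave a log2 change of -0.20 (95% interval -0.77 to 0.37, adjusted p = 0.757). *Uchl4* was near background, at 1.2 to 5.8 in the mutant and 3.3 and 9.4 in the control.

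Of 51 *Usp* genes, 3 rose and none fell at the adjusted threshold in limma, and 11 had an unadjusted p under 0.05. These shares, 5.88% and 21.6%, lay near those of all genes, 5.82% and 17.8%. *Usp5* encodes the enzyme that takes apart unanchored ubiquitin chains and so recycles ubiquitin. It read 204, 272 and 332 in the mutant and 122 and 125 in the control. The controls were almost equal, and the mutant arrays spread above them. The means were 269.2 ± 63.8 (SD, n = 3) in mutant lenses, against 123 ± 2.19 (SD, n = 2) in control lenses, a log2 change of 0.92 (standard error 0.16, adjusted p = 0.0206). *Usp5* did not pass without mutant array B (adjusted p = 0.0623), control array A (0.102) or control array B (0.147). *Usp13*, its close homolog, was at 8.2 to 13.7 in the mutant and 10.9 and 13.2 in the control (log2 change -0.02), and *Usp14*, which trims chains on the proteasome, had a log2 change of 0.14 (95% interval -0.19 to 0.47).

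*Usp11*, an X-linked gene whose product acts in DNA repair by homologous recombination, read 66.3, 95.5 and 113 in the mutant and 33.8 and 39.1 in the control. All 3 mutant arrays were above both controls. The means were 91.7 ± 23.8 (SD, n = 3) in mutant lenses, against 36.5 ± 3.75 (SD, n = 2) in control lenses, a log2 change of 0.80 (standard error 0.15, adjusted p = 0.0266). A second probe read 49.7, 49.5 and 55.2 in the mutant and 24.9 and 28.4 in the control and passed as well (log2 change 0.48, adjusted p = 0.0169 over probes). On both probes mutant array C, the mutant array with *Xist* signal, was the highest. *Usp11* did not pass without mutant array B (adjusted p = 0.0816), control array A (0.125) or control array B (0.147). None of the 5 other X-linked members passed. *Ube2a* read 129, 133 and 110 in the mutant and 94.7 and 88.1 in the control, while *Usp9x*, *Usp26*, *Usp27x* and *Ube2dnl2* were dim, between -0.9 and 21.8 in the mutant and between -2.8 and 17.5 in the control.

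*Usp22*, the deubiquitinase of the SAGA coactivator that removes ubiquitin from histones H2A and H2B, had the largest adjusted p among the 8. It read 441, 502 and 584 in the mutant and 350 and 317 in the control. The groups did not overlap, though mutant array A lay nearer to control array A than to mutant array C. The means were 508.9 ± 71.6 (SD, n = 3) in mutant lenses, against 333 ± 23.9 (SD, n = 2) in control lenses, a log2 change of 0.55 (standard error 0.12, adjusted p = 0.0419). A second bright probe read 301, 294 and 297 in the mutant and 207 and 238 in the control (log2 change 0.37, adjusted p = 0.0547 over probes). *Usp22* did not pass without mutant array B (adjusted p = 0.115), control array A (0.101) or control array B (0.249). The other 7 histone and chromatin deubiquitinase genes did not pass. *Usp16*, which acts on histone H2A, had a log2 change of 0.01 (95% interval -0.22 to 0.23), and *Usp27x*, a paralog of *Usp22*, was at background.

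Among deubiquitinase genes of the DNA damage and p53 pathways, *Usp10*, whose product acts on p53, read 102, 105 and 59.8 in the mutant and 127 and 166 in the control. The groups did not overlap and mutant array C was the lowest (log2 change -0.56, 95% interval -0.98 to -0.14, adjusted p = 0.143). A second *Usp10* probe of similar brightness overlapped between groups, at 92.5, 97.8 and 103 in the mutant and 95.6 and 128 in the control (log2 change -0.14). *Usp7*, which acts on Mdm2 and p53, had a log2 change of 0.11 (95% interval -0.14 to 0.35), and *Usp47*, which acts on DNA polymerase beta, of -0.09 (95% interval -0.29 to 0.11). *Usp45* was dim, at 7.4, 7.4 and 9.9 in the mutant and 17.8 and 34.3 in the control (log2 change -0.47, adjusted p = 0.0696).

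The 7 deubiquitinase genes of endosomes, membranes and organelles had log2 changes between -0.22 for *Usp8* and 0.24 for *Usp19*, and none passed. *Usp46*, which works with the activator Wdr48, read 633, 653 and 765 in the mutant and 604 and 477 in the control (log2 change 0.32, 95% interval 0.03 to 0.62, adjusted p = 0.228). *Usp37*, which counters the anaphase-promoting complex, had a log2 change of -0.53 (95% interval -0.95 to -0.10, adjusted p = 0.167). The 3 genes linked to the spliceosome, *Usp4*, *Usp15* and *Usp39*, lay between -0.14 and 0.08. The 6 genes grouped as germline-type, which are 4 *Usp17*-like genes, *Usp26* and *Usp29*, were near background, and near-identical copies of the *Usp17*-like genes could share signal. Their log2 changes were between -0.09 and 0.08.

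Over all probes that name 1 gene, 58 members had more than 1 probe. Of 201 member probes, 10 passed, from 9 genes, which is 4.98%, against 4.28% of all 34885 such probes. *Ube2q2* was the gene added, through its dimmer probe, and *Usp11* the gene with a pair. Of the 5 genes that passed and have several probes, *Usp11* and *Usp22* had a second probe above background that lay in the same direction, and the other probes of *Uba6*, *Ube2n* and *Ube2z* were dim.

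**Figure D3:**
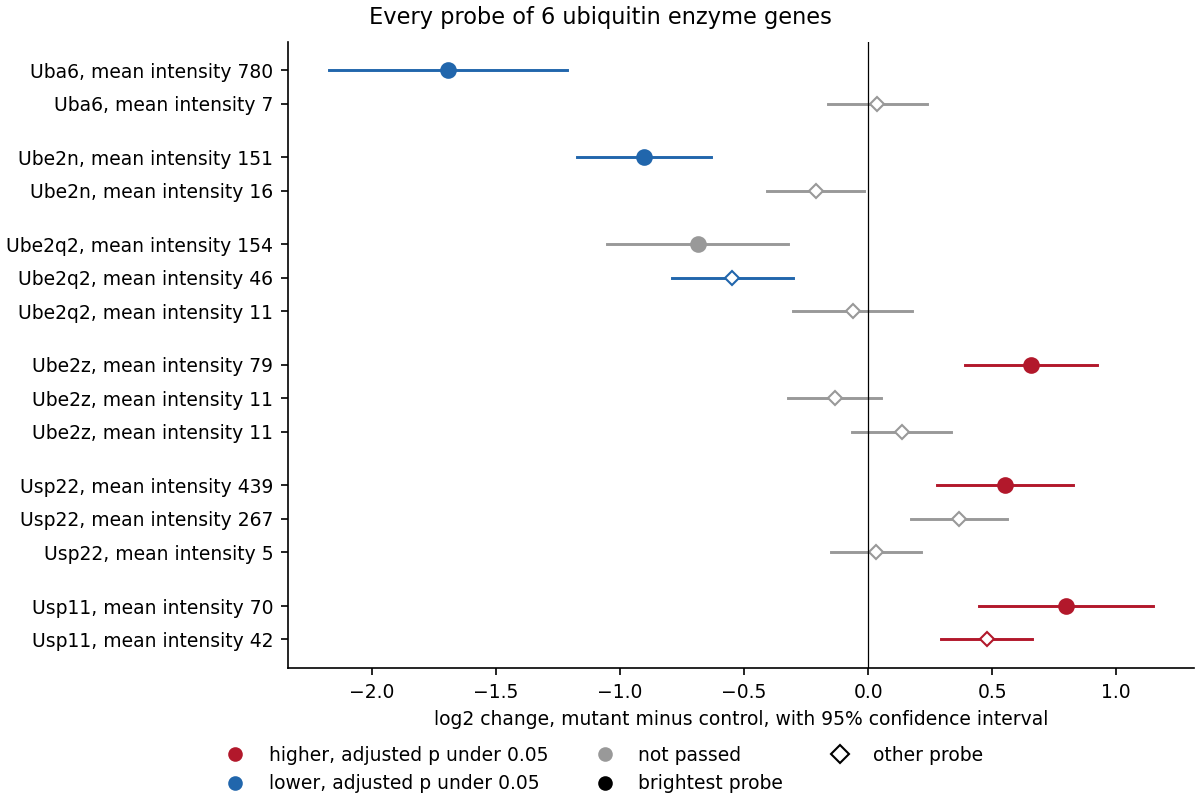
Log2 change (mutant minus control, with 95% confidence interval) of every probe of *Uba6*, *Ube2n*, *Ube2q2*, *Ube2z*, *Usp22* and *Usp11*, with the brightest probe of a gene as a filled circle, the others as open diamonds, and the mean intensity over 5 arrays beside each. Both *Usp11* probes lie above 0 at 0.80 and 0.48, both brighter *Ube2q2* probes lie below 0 at -0.69 and -0.55, and the dim *Uba6* probe lies at 0.04.

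The mutant arrays were not alike in all members. Among the 50 brighter members, mutant arrays A and B were nowhere 0.5 or more apart on the log2 scale, and the median distance between them was 0.11. Mutant array C was at least 0.5 from the mean of A and B in 6 members, a distance chosen after the values were seen, and the median distance was 0.18. It was lower in *Uchl5*, *Uba3*, *Ube2q1*, *Usp10* and *Usp1*, and higher in *Uba6*, each read by its brightest probe. The second *Usp10* probe of similar brightness was highest on array C among the mutant arrays, at 92.5, 97.8 and 102.5. *Usp1*, which acts on PCNA and FANCD2, read 61.1, 51.7 and 27.7 in the mutant and 51.3 and 76.5 in the control. For *Uchl5*, 3 of the 4 probes were lowest on array C, and the fourth read 158, 168 and 159 in the mutant and 167 and 178 in the control. Array C also differed from A and B in *Xist* and *Eif2s3y*, and the part of that difference was not tested. With mutant array C alone against the controls, the log2 changes of the 8 genes lay from -1.34 for *Ube2o* to 1.65 for *Uchl1*, with 0.56 for *Ube2z*. Array C was among the arrays by which the 8 genes were picked, so these values are no separate support.

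**Figure D4:**
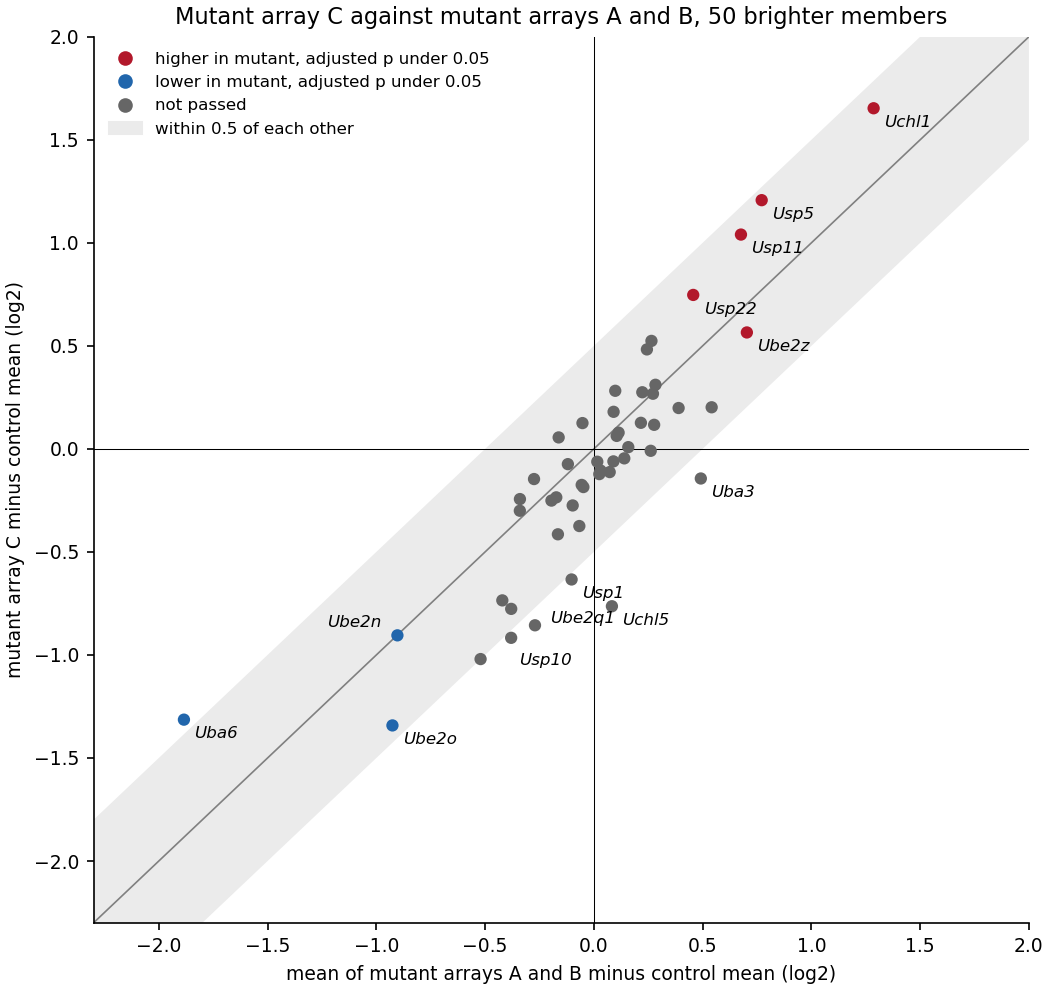
Log2 distance from the control mean on mutant array C (vertical) against the mean of mutant arrays A and B (horizontal) for the 50 members with a mean intensity of at least 36.5, with the grey band marking values within 0.5 of each other, red and blue marking genes higher and lower in the mutant at an adjusted p under 0.05 and dark grey the rest. The 8 genes that passed lie in the quadrants where array C has the same direction as A and B, and *Uchl5*, *Uba3*, *Ube2q1*, *Usp10* and *Usp1* lie below the band.

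The E3 ligases, other deubiquitinase families and receptors that act after these enzymes were taken from further lists. Of 291 listed genes, 259 were analysed, and 10 rose and 8 fell, which is 6.95% of them and lies near the 5.82% of all genes. None of the 15 partners that regulate the listed deubiquitinases passed by limma, with 2 at an unadjusted p under 0.05 (13.3%, against 17.8% of all genes). Some genes whose products work with members named above passed. *Rad18* and *Rnf20*, whose products work with those of *Ube2a* and *Ube2b*, were dim and did not pass. A link between such genes and the members was not tested. *Rnf8*, a ligase that uses Ubc13 at DNA breaks, read 262, 281 and 371 in the mutant and 143 and 116 in the control (log2 change 1.03, adjusted p = 0.00913), whereas *Ube2n* fell. *Fzr1*, the Cdh1 activator of the anaphase-promoting complex, rose (0.83, adjusted p = 0.00715), and 14 other genes of that complex did not pass. The share of that list, 6.67%, lies near the background.

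Among 69 RING and U-box ligase genes, 5 rose and 1 fell (8.70%, against 5.82% of all genes). *Rnf181* read 911, 943 and 924 in the mutant and 544.3 and 543.5 in the control (log2 change 0.73, adjusted p = 0.00337), and *Mdm2*, the ligase of p53, rose by 0.72 (adjusted p = 0.0127). *Rnf185*, a ligase of the endoplasmic reticulum and mitochondria, fell (-0.61, adjusted p = 0.0120). Of 21 HECT ligase genes only *Nedd4l*, which acts on the epithelial sodium channel, passed (4.76%, against 5.82% of all genes). It read 274, 267 and 224 in the mutant and 475 and 552 in the control (log2 change -0.92, adjusted p = 0.00550). Of 53 genes of cullin ligases, none rose and 3 fell, *Klhl22*, *Fbxo4* and *Eloc*, by 0.46, 0.45 and 0.43 on the log2 scale, a share of 5.66% that lies near the background.

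The list of other deubiquitinase families also took in *Senp* genes, *Pan2* and *Uspl1*, which do not encode proteases of ubiquitin. Of its 39 measured genes, 3 fell and 1 rose (10.3%, against 5.82% of all genes). These were *Mpnd* (log2 change -0.65, adjusted p = 0.00569), *Otud7b* (-0.65, adjusted p = 0.00886), a protease of Lys11-linked chains and an NF-kappaB regulator, and *Uspl1* (-0.62, adjusted p = 0.0174), a SUMO protease despite its name, with *Stambp*, an endosomal Lys63 protease, higher (0.47, adjusted p = 0.0180). *Sumo3* rose (0.53, adjusted p = 0.0217). Among 32 receptors of ubiquitin and partners of the p97 segregase, 2 rose, a share of 6.25% that lies near the 5.82% of all genes. *Sqstm1*, the p62 receptor that brings ubiquitinated cargo to autophagosomes, read 2778, 2895 and 2146 in the mutant and 678 and 764 in the control (log2 change 1.79, adjusted p = 0.00154). *Nsfl1c*, the p47 cofactor of p97, rose by 0.92 (adjusted p = 0.0102). Both had their lowest mutant value on array C.

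**Figure D5:**
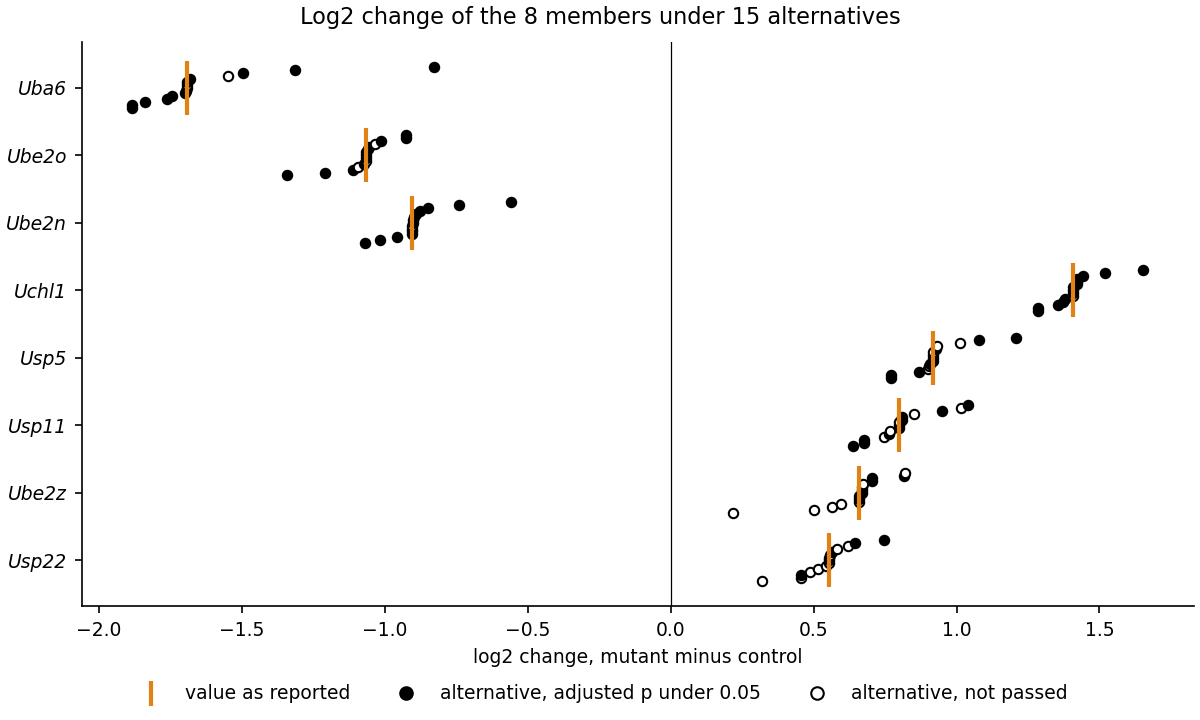
Log2 change (mutant minus control) of the 8 genes as reported (orange line) and under 15 alternatives of scaling, filter, probes, variance model and arrays used (circles, filled where the adjusted p was under 0.05). As the groups of these genes do not overlap, most alternatives could not move a circle across 0. All circles of a gene lie on the same side of 0, and *Uchl1* and *Ube2n* passed under 14 of the 15, *Uba6* under 13, *Ube2o* under 12, *Usp5* and *Usp11* under 10, *Ube2z* under 8 and *Usp22* under 6.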

How the data were processed

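The authors deposited 1 linear intensity per probe and array, after background correction with the lumi package and rank invariant normalization. Versions for these tools were not given in the sources used here. Here, 36.5 was added so that the lowest value became 16, log2 was taken, and each of 19057 genes was read by the probe of the highest mean log2 value. Probes that name several genes or none were left out. In R 4.3.3, limma 3.58.1 (lmFit, then eBayes, two-sided and without a block) set the 3 mutant arrays against the 2 control arrays, and p-values were adjusted by Benjamini-Hochberg with a threshold of 0.05. An exact permutation test of 1 gene with 3 arrays against 2 has 10 splits and a lowest p of 0.1. The number of arrays limits the precision. No arrays were identical. The labels do not say whether letters pair arrays, so the block was an alternative. Deviations of same-letter arrays from their group mean correlated at 0.00294 and 0.0247 over 2 pairs. The 2 controls deviate by equal and opposite amounts, so these values cannot settle whether arrays were paired.

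The members, lists and tests were chosen with earlier results of these data known. Named genes were every member past the threshold, all E1 and *Uchl* members, X-linked members, the 3 brightest of each class, and up to 4 genes per wider list. Other genes were picked with their values known. The alternatives tried were median centring, quantile normalization, dropping dim genes, averaging probes, a constant of 16, a trend with robust moderation, array weights, no moderation, the replicate block, leaving out each array, and mutant array C alone. On simulated data of 19057 genes in this design, the code found 96 of the 100 with a log2 change of 1 and 98 of the 100 with a log2 change of 2, and it called 11 of 18857 unchanged genes. The changes were planted only in genes brighter than the median probe, with independent normal noise drawn from the fitted variance model. Detection in dim genes or with real noise was thus not measured. Genes of the ubiquitin precursors were not analysed here.  Figures used Python 3.11.15 and matplotlib 3.10.9.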

Additional observations from a re-analysis of the deposited data

How the results depend on the processing

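The 8 members kept their direction under all 15 alternatives. Their mutant and control arrays did not overlap, so leaving out arrays or changing the variance model could not reverse them. Of the values of named genes under an alternative, 494 stayed on their side of the threshold, 108 lost it and 11 reached it. With a constant of 16 in place of 36.5 (values below 0 set to 0), 4 members passed, with 475 of all genes, 8 genes of the wider pathway (18 as reported) and 1 member probe (10 as reported). The 4 members were *Uba6*, *Ube2n*, *Ube2o* and *Uchl1*. Without moderation of the variance between genes, limma passed 0 members, 8 of all genes, 0 genes of the wider pathway and 0 member probes. With moderation, at the same adjusted threshold, 8 members and 1110 of all genes passed. A rule of a 2-fold change or more with an unadjusted p below 0.05 gave 3 members. The share of all genes under this rule was not counted, so the 3 cannot be set against a background. On leaving out each array in turn, the count lay between 2 and 11 for members, 223 and 1179 for all genes, 4 and 19 for the wider pathway and 2 and 12 for member probes, with the lowest each time without control array B. With mutant array B left out 4 members passed. After quantile normalization 4 members rose and 4 fell, with *Ube2q2* in place of *Usp22*. The counts of all genes in these settings are not given here, so these member counts cannot be set against a background. With the replicate block, 10 members, 1275 of all genes, 24 genes of the wider pathway and 17 member probes passed. Of the members, *Uba3*, *Ube2k* and *Ube2q2* were added and *Usp22* was lost (0.46, adjusted p = 0.0572), but the arrays share only a letter and 1 mutant array has no partner. With 2 control arrays, the arrays' number limits every value. Small changes of dim genes near background could have been missed, and their detection was not measured here.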
